A study of Mus musculus with 6 samples.

Results

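Tubulin genes were followed in haematopoietic stem cells of HLF KO mice and of wild-type littermates (HLF, hepatic leukaemia factor, is a PAR bZIP transcription factor), to ask whether a higher level of the alpha-tubulin gene Tuba8 in the knockout is shared by other tubulins. The set was chosen by gene name, with earlier results of these data known, and holds 10 of the 23574 genes in the count tables. It has 5 alpha-tubulins (Tuba8, Tuba1a, Tuba1b, Tuba1c and Tuba4a), 4 beta-tubulins (Tubb5, Tubb2a, Tubb4b and Tubb6) and the gamma-tubulin Tubg1. The question itself was selected on the count-based difference of Tuba8 between knockout and wild type, so the values of Tuba8 in this contrast are given as a description and without a test. Both groups were C57BL/6 mice, and the groups differ in the labels by genotype alone, HLF KO (3 libraries) and wild type (3 libraries). Each library was made from total RNA of 3000 freshly sorted cells that were negative for lineage markers, CD34 and Flt3 and positive for Sca-1 and c-Kit. The sources used here give neither the ages of the animals nor the part of Hlf removed, nor whether the 3 libraries of a genotype are 3 animals. The p-values thus refer to spread among libraries, part of which could be technical.

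Microtubules are hollow polymers of alpha-tubulin and beta-tubulin, which fold with the help of the chaperonin CCT and join into dimers before they polymerise. Gamma-tubulin is the core of the ring complex that starts new microtubules at the centrosome. Mammals carry several genes, called isotypes, for each kind of tubulin. Some isotypes are broadly expressed and serve the spindle of dividing cells, while others, such as Tubb1 of platelets and Tubb3 of neurons, are known from particular cells. The isotypes differ most at the end of the protein, where most alpha-tubulins finish with a tyrosine that enzymes can remove and put back.

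The ends of the coding sequences show how 4 of the alpha isotypes differ. They are given as the final 30 coding bases, stop codon included, from GENCODE vM21 transcripts (GRCm38), with the last codon before the stop in capitals.
Tuba8 (chromosome 6): gaagaagagaatgagggggaggaaTTTtaa
Tuba1b (chromosome 15): gagggggaggaagaaggagaggagTACtaa
Tuba1c (chromosome 15): gaaggagacgatgagggtgaggaaTATtaa
Tuba4a (chromosome 1): tatgaggacgaggatgagggagaaGAGtag
Tuba1b and Tuba1c end on a tyrosine codon. Tuba8 ends on a phenylalanine codon and Tuba4a on a glutamate codon, so neither carries the final tyrosine in its gene.

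The sequences also set how well reads can be told apart. The coding sequences of Tuba1a and Tuba1b were 98.3% identical, those of Tuba1a and Tuba1c 97.1%, and those of Tuba1b and Tuba1c 97.9%. Tuba8 was 79.2% to 81.0% identical to the other 4 alpha members. Of all stretches of 50 bases in the transcript, 52.0% in Tuba1a, 64.6% in Tuba1b and 59.8% in Tuba1c also occurred in another tubulin transcript, against 0.181% in Tuba8 and 0% in Tuba4a. Among the beta members the share was 45.6% in Tubb2a, all of it with Tubb2b, 0.038% in Tubb5 and 0% in Tubb4b and Tubb6. Tubg1 shared 13.9% with Tubg2. How reads that match several genes were treated is not stated by these sources. The split between Tuba1a, Tuba1b and Tuba1c, and between Tubb2a and Tubb2b, is therefore uncertain, and their sums are given beside the single genes.

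The knockout libraries 1, 2 and 3 held 10462713, 10182464 and 11998296 counts and the wild-type libraries 8346335, 9902102 and 8800688, so the knockout libraries were deeper in every case. Hlf had 309, 399 and 431 counts in knockout and 10768, 15982 and 10055 in wild type, and it fell with a log2 fold change of -5.33 (SE 0.26, edgeR quasi-likelihood adjusted p = 1.91e-06). Genes that define the sort could be read only in part. Of the 4236 genes with several listed transcripts 20.8% passed the filter on low counts, and of the 19338 genes with 1 listed transcript 48.2% did. Kit (2 transcripts) had 1 count over all libraries, Ly6a (6 transcripts, Sca-1) had 0 and Cd34 (2 transcripts) had 24. Flt3 (1 transcript) had 118, 198 and 103 counts in knockout and 88, 318 and 160 in wild type, in cells sorted as negative for the Flt3 protein. All 10 tubulin members have 1 listed transcript. Granulocyte markers set wild-type library 3 apart, with a summed level of 2389 CPM (counts scaled to a common library size, with a TMM factor), against 67.3, 165 and 62.7 CPM in the knockout libraries and 191 and 119 CPM in wild-type libraries 1 and 2.

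Across the whole table Hlf was the 1 gene of 10204 tested with an adjusted p under 0.05, which is 0.0098% of genes, all of it lower, and 0% were called higher. All 10 members passed the filter on low counts, and 0 of the 9 members other than Tuba8 passed the test in either direction. With an unadjusted p under 0.05 there were 2 of these 9 with a higher value (Tuba1a and Tubg1) and 0 with a lower one, against 2.63% and 4.65% of all tested genes. DESeq2 called 120 genes (1.18%), 22 of them higher (0.216%), and 0 of the 9 members, and limma-voom called 0 of the 9 and 0.0098% of genes. All 10 members had a log2 fold change above 0, against 47.2% of all tested genes and 49.8% of the 1576 genes whose mean log2 CPM was 7 or more. Of the tested tubulins outside the member set, Tubb4a (-3.02) and Tube1 (-0.07) were negative and Tubb2b (0.79) was positive. The median log2 fold change was 0.38 over the members and -0.05 over all tested genes. The members were chosen with values of this contrast known, so these counts and shares are a description, those of Tuba8 in particular. The sign count was 9 of 10 without knockout library 1 and without wild-type library 3, Tubb4b being the exception in both, and 10 of 10 under the other scalings, filters and tests. In bulk libraries such as these, more cells of a type and more RNA per cell cannot be told apart.

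**Figure D1:**
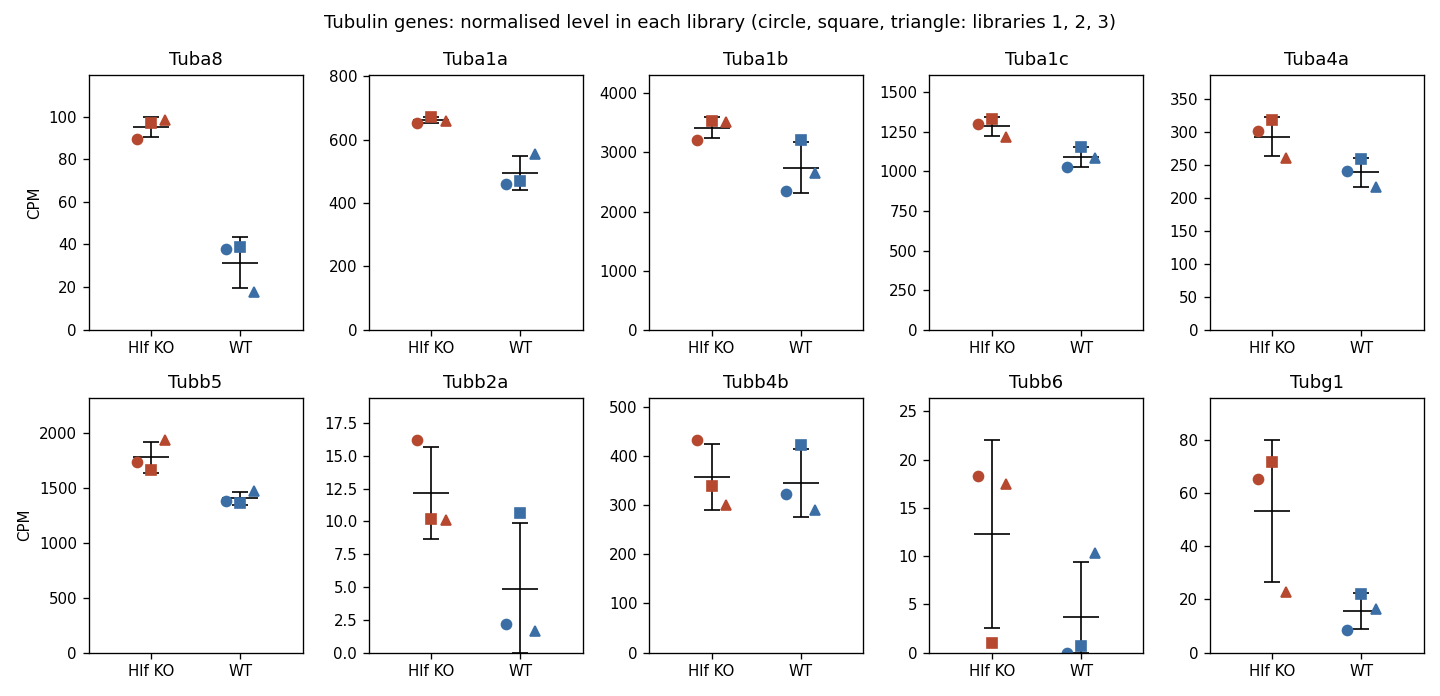
Normalised level (CPM, linear axes from 0) of each of the 10 tubulin genes in the knockout libraries (red) and the wild-type libraries (blue); black lines are the mean and SD of 3 libraries, with lower bars ended at 0. The genotypes are apart for Tuba8, Tuba1a, Tuba1c and Tubb5, all but touch for Tuba1b, Tuba4a and Tubg1, and overlap for Tubb2a, Tubb4b and Tubb6.

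Tuba8 encodes an alpha-tubulin that in human tissue is known from muscle and testis, and in blood from platelets. Its level was 89.7, 97.2 and 98.2 CPM in knockout libraries 1, 2 and 3 and 37.8, 38.7 and 17.6 CPM in the wild-type libraries. The genotypes were well apart, the knockout libraries lay close together, and wild-type library 3 was lower than the other wild-type libraries. The mean was 95.01 ± 4.67 CPM in knockout and 31.4 ± 11.9 CPM in wild type (SD, n = 3 each), and the fitted log2 fold change was 1.60 (SE 0.43, 95% interval 0.66 to 2.53), a 3.03-fold higher level in knockout. Without wild-type library 3 it was 1.32, the lowest value with 1 library left out, and without wild-type library 2 it was 1.78. An increase of at least this size, with Tuba8 itself counted, was seen in 3.85% of all tested genes. Among the 6611 genes whose mean log2 CPM was 4 or more, the share was 0.348% (23). Decreases of this size are not in these shares. No test is attached to these values, for the reason given above.

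Tuba1b, the most abundant member and a broadly expressed alpha-tubulin, had 3213, 3532 and 3509 CPM in knockout and 2355, 3209 and 2656 CPM in wild type. The lowest knockout library and wild-type library 2 were all but equal, and the log2 fold change was 0.32 (SE 0.17, 95% interval -0.06 to 0.69, edgeR adjusted p = 0.71). Tuba1a, known as the main alpha-tubulin of developing neurons, had 651, 670 and 660 CPM in knockout and 459, 468 and 556 CPM in wild type. Its knockout libraries spanned a narrow range above every wild-type library, with a log2 fold change of 0.42 (SE 0.19, 95% interval 0.01 to 0.83, edgeR adjusted p = 0.68). Tuba1c, another broadly expressed alpha-tubulin, had 1297, 1332 and 1219 CPM in knockout and 1024, 1151 and 1086 CPM in wild type, a log2 fold change of 0.24 (SE 0.17, 95% interval -0.13 to 0.61, edgeR adjusted p = 0.77). Reads of these 3 genes may be shared, and their sum was 5162, 5534 and 5388 CPM in knockout and 3839, 4827 and 4298 CPM in wild type, 1.24 times higher in the mean and without overlap.

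Tuba4a, an alpha-tubulin also known from platelets, shares no 50-base stretch with the other isotypes. It had 301, 317 and 260.2 CPM in knockout and 240.5, 259.3 and 216 CPM in wild type. Knockout library 3 and wild-type library 2 differed by about 1 CPM, so the groups were apart by less than the spread within either. The log2 fold change was 0.29 (SE 0.22, 95% interval -0.19 to 0.77, edgeR adjusted p = 0.78).

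Among the alpha members, Tuba8 therefore stood at 1.60 on the log2 scale and the other 4 between 0.24 and 0.42. The upper ends of the other 4 intervals lay between 0.61 and 0.83, and the lower end for Tuba8 was 0.66. Whether Tuba8 differs from the others was not tested, since it was chosen for its value in this same contrast.

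**Figure D2:**
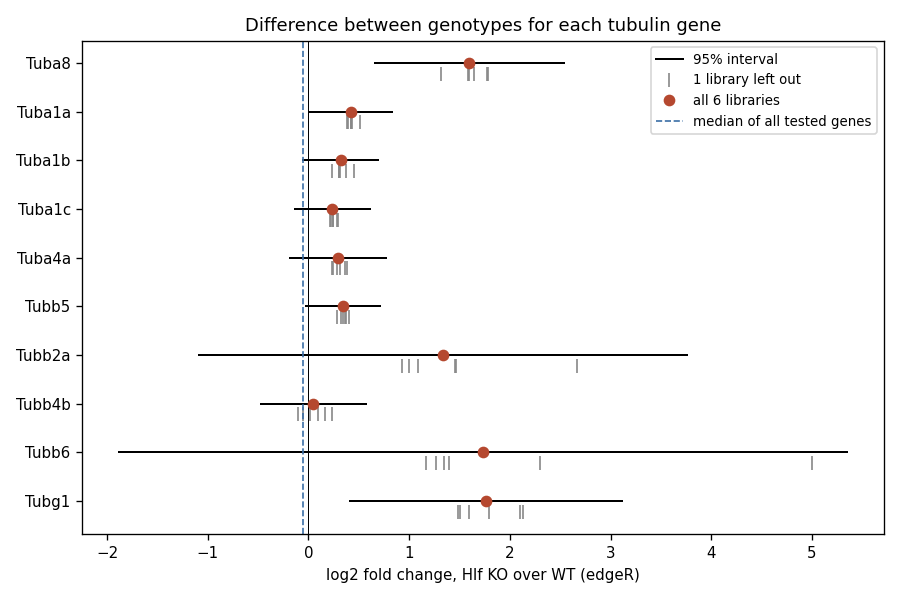
Log2 fold change of knockout over wild type for each tubulin gene (red points, edgeR fit over 6 libraries) with its 95% interval (black lines), the values with 1 library left out (grey ticks) and the median of all tested genes (dashed line). Tubg1 at 1.76 and, by a small margin, Tuba1a have intervals above 0. Tuba8 stands at 1.60, with its interval drawn as a description and not as a test. The abundant alpha and beta genes lie between 0.05 and 0.42, and the sparse Tubb2a and Tubb6 have wide intervals.

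The make-up of the alpha-tubulin counts shows the same values within each library, free of scaling. Tuba8 held 1.61%, 1.63% and 1.71% of the counts of the 5 alpha members in knockout libraries and 0.918%, 0.755% and 0.389% in wild-type libraries. The 95% Wilson intervals, which cover counting error only, ran from 1.52% to 1.81% over the knockout libraries and from 0.333% to 1.03% over the wild-type libraries. Wild-type library 3 was again the lowest. Per kilobase of transcript the share was 1.32%, 1.33% and 1.39% in knockout and 0.751%, 0.613% and 0.316% in wild type. The other shares overlapped between genotypes: Tuba1b held 57.9% to 61.1% of the alpha counts in knockout and 57.2% to 62.6% in wild type, Tuba1a 11.3% to 11.7% and 9.13% to 12.3%, and Tuba4a 4.53% to 5.41% and 4.77% to 5.84%. For Tuba1c the range was 21.2% to 23.4% in knockout and 22.5% to 24.9% in wild type. Tuba8 was a minor isotype in both genotypes, at 42.0 ± 2.06 CPM per kilobase in knockout and 13.9 ± 5.26 in wild type, against 1961 ± 102 and 1572 ± 248 for Tuba1b (SD, n = 3 each).

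**Figure D3:**
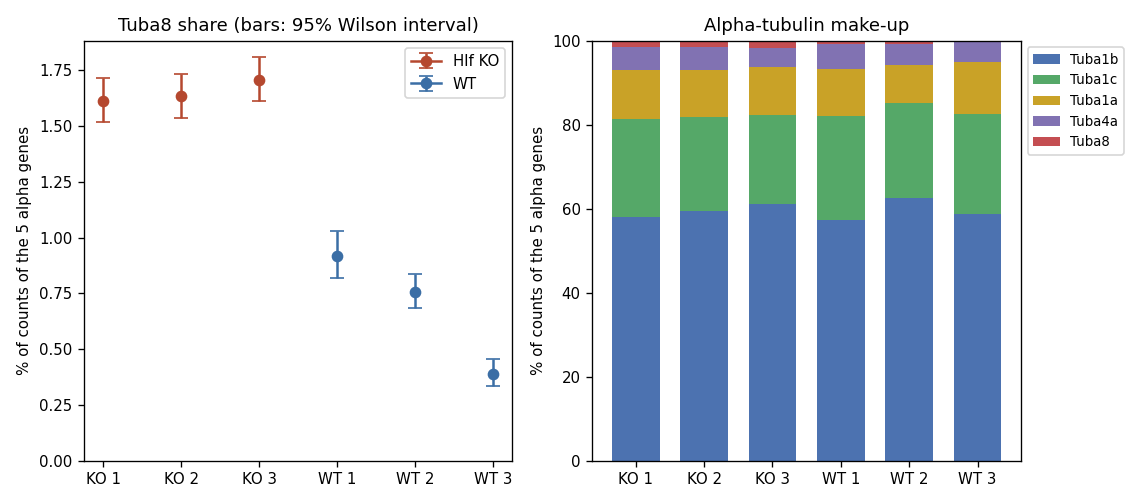
Left, the percentage of the counts of the 5 alpha-tubulin members that came from Tuba8 in each library, with 95% Wilson intervals; right, the full make-up of those counts per library. The knockout libraries stand at 1.61% to 1.71% and the wild-type libraries at 0.389% to 0.918%, while Tuba1b holds 57.2% to 62.6% throughout.

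Tubb5 is the main beta-tubulin of dividing cells and was the most abundant beta member here. It had 1742, 1662 and 1940 CPM in knockout and 1385, 1363 and 1473 CPM in wild type. Every knockout library lay above every wild-type library, and the log2 fold change was 0.34 (SE 0.17, 95% interval -0.03 to 0.71, edgeR adjusted p = 0.69). Tubb4b, a broadly expressed beta-tubulin, had 433, 340 and 301 CPM in knockout and 323, 424 and 291 CPM in wild type. Its genotypes overlapped fully, with a log2 fold change of 0.05 (SE 0.24, 95% interval -0.47 to 0.57, edgeR adjusted p = 0.98). It turned to -0.10 without knockout library 1 and to -0.06 without wild-type library 3.

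Tubb2a, best known from neurons, was sparse, with 177, 108 and 117 counts in knockout and 17, 102 and 15 in wild type. Its level was 16.2, 10.2 and 10.1 CPM in knockout and 2.16, 10.6 and 1.66 CPM in wild type. Wild-type libraries 1 and 3 were low and wild-type library 2 stood among the knockout libraries, so the log2 fold change of 1.33 had an SE of 1.11 (edgeR adjusted p = 0.81). It was 2.67 without wild-type library 2 and 0.93 without wild-type library 3. The sum of Tubb2a and Tubb2b showed the same picture, with 18.8, 11.4 and 11.8 CPM in knockout and 2.80, 12.6 and 2.22 CPM in wild type.

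Tubb6, a beta-tubulin known in mouse from regenerating muscle, had 200, 11 and 202 counts in knockout and 0, 7 and 93 in wild type. Levels were 18.3, 1.04 and 17.5 CPM in knockout and 0, 0.728 and 10.3 CPM in wild type. The gene was nearly absent from 1 knockout and 2 wild-type libraries, and the difference of 1.73 (SE 1.65, edgeR adjusted p = 0.84) was smaller than the spread in either genotype. It was 5.003 without wild-type library 3 and 1.17 without wild-type library 1.

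Tubg1, the ubiquitous gamma-tubulin, lies on chromosome 11, as does Hlf, in the GRCm38.p6 gene table. It had 65.5, 71.9 and 22.7 CPM in knockout and 8.65, 22.2 and 16.3 CPM in wild type. Knockout libraries 1 and 2 were high, and knockout library 3 was level with wild-type library 2. The mean was 53.3 ± 26.7 CPM in knockout and 15.7 ± 6.77 CPM in wild type (SD, n = 3 each). The log2 fold change was 1.76 (SE 0.62, 95% interval 0.41 to 3.11), and it did not pass over all genes (edgeR adjusted p = 0.56). With 1 library left out it ranged from 1.49 without wild-type library 1 to 2.13 without knockout library 3. The paralogue Tubg2 had 6, 11 and 4 counts in knockout and 0 in each wild-type library, too few to be tested.

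By separation of the groups, 7 of the 10 members had every knockout library above every wild-type library and 0 had every one below, against 7.52% and 6.85% of all tested genes. The 7 include Tuba8, on whose value the question was selected. They also include Tuba1a, Tuba1b and Tuba1c, whose reads may be shared, so the count is a description and not a test. Among genes whose mean log2 CPM was 7 or more, 9.96% had every knockout library above. For Tuba1b, Tuba4a and Tubg1 the gap was narrow. The count was 6 with library size alone, where Tuba4a overlapped, and 5 with DESeq2's size factors, where Tuba1b overlapped as well. Summed over the 10 members, tubulin took 7827, 8034 and 8037 CPM in knockout and 5836, 6945 and 6324 CPM in wild type. The mean was 7966 ± 121 CPM in knockout and 6368 ± 556 CPM in wild type (SD, n = 3 each), 1.25 times higher in knockout. The alpha sum was 1.25 times and the beta sum 1.23 times higher, and the ratio of alpha to beta per kilobase overlapped between genotypes, at 3.17, 3.81 and 3.34 in knockout and 3.06, 3.55 and 3.31 in wild type.

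Of 10 other tubulin genes listed, 3 were tested. Tube1, an epsilon-tubulin of centrioles, had 18.4, 18.9 and 17.5 CPM in knockout and 8.27, 35.8 and 13.4 CPM in wild type, and a log2 fold change of -0.07 (SE 0.74). Tubb2b stood at 0.79 (SE 1.40). Tubb4a stood at -3.02 (SE 1.62, edgeR adjusted p = 0.71), a value that came from wild-type library 1 with 210 counts, against 21, 1 and 19 in knockout and 19 and 12 in the other wild-type libraries. Tubb1, the beta-tubulin of platelets, had 22, 0 and 17 counts in knockout and 0 in each wild-type library. Tubb3, known from neurons, had 15, 0 and 4 counts in knockout and 106, 0 and 7 in wild type. Tuba3a, Tuba3b and Tubal3 had 0 counts in all libraries, where 3 counts would be 0.260 to 0.283 CPM in knockout and 0.312 to 0.382 CPM in wild type. Tubd1, with 4 listed transcripts, also had 0.

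Promoters of the members were compared by their letters. Of the 10 genes, 8 had an entry in the RefSeq promoter table (GRCm38.p6), and Tubb6 and Tubg1 had none. The 250 bases before the start are printed for Tuba8, for Tubb5, the abundant beta gene whose genotypes did not overlap, and for Tubb4b, whose genotypes did. Capitals mark the CCAAT box (CCAAT, bound by NF-Y), the CHR element of cell cycle genes (TTTGAA) and the E-box (CACGTG), searched on both strands. None overlapped another.
Tuba8, chr6:121210484-121210733, plus strand: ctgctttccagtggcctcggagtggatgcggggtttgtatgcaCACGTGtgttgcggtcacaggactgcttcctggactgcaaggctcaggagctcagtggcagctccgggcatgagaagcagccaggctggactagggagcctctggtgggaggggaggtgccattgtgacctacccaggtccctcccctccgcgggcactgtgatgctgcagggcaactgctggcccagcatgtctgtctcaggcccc
Tubb5, chr17:35838302-35838551, minus strand: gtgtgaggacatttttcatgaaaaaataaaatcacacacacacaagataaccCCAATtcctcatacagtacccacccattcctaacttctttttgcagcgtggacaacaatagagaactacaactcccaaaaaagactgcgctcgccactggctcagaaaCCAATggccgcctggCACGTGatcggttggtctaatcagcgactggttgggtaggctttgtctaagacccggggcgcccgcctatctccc
Tubb4b, chr2:25224703-25224952, minus strand: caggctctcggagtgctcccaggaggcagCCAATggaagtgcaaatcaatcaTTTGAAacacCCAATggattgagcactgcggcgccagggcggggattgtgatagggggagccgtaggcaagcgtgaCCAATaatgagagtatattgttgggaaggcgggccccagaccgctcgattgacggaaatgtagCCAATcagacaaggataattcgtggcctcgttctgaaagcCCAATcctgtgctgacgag
The CCAAT box was found in 4 of the 8 promoters, Tuba1a, Tuba1c, Tubb4b and Tubb5, where 33.8% of all 32851 promoters in the table hold it. Tubb4b had 5 copies, Tubb5 had 2, and Tuba8 had 0. The CHR element was found in Tubb4b alone among the 8 (16% of all promoters), and the E-box in Tuba8 and Tubb5 (6.02%). The sites known for PAR bZIP factors such as HLF, TTACGTAA and TTATGTAA, were in 0 of the 8 windows, and in 0.113% and 0.819% of all promoters.

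The 2 protein-coding genes on either side of Tuba8 in the gene table had values of the other sign. Mical3 stood at -0.18 (SE 0.49), Pex26 at -0.95 (SE 0.59), Usp18 at -0.78 (SE 0.61) and Slc6a13 at -0.78 (SE 0.93), with edgeR adjusted p from 0.74 to 0.96.

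The genes whose levels ran closest to Tuba8 over the 6 libraries, by Pearson's r of log2 CPM among 6610 genes with a mean of 4 or more, were Hnrnpll (r = 0.993), Prkar2b (0.986), Pclaf (0.981), F2r (0.981) and Dstyk (0.977). All 5 share these libraries and the gap between genotypes with Tuba8, and their r values are a description. Each was higher in every knockout library than in any wild-type library, as were 7.52% of all tested genes, and lowest in wild-type library 3. The choice by likeness to Tuba8 favours both traits. Their differences were smaller than that of Tuba8. F2r, which encodes a thrombin receptor, stood at 1.18 (SE 0.25). Dstyk stood at 0.79 (SE 0.48), the protein kinase A subunit gene Prkar2b at 0.68 (SE 0.27), the splicing regulator Hnrnpll at 0.63 (SE 0.29) and Pclaf, which encodes a partner of the replication clamp PCNA, at 0.38 (SE 0.33). No test is attached to these differences, since the 5 genes were picked by likeness to Tuba8, itself chosen for this contrast.

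**Figure D4:**
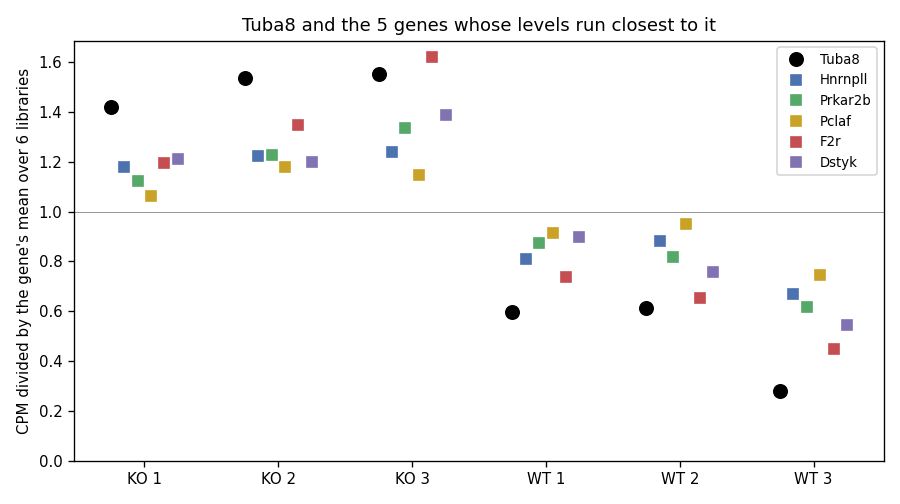
CPM of Tuba8 (black circles) and of the 5 genes with the highest Pearson's r to it (coloured squares) in each library, each divided by the gene's own mean over the 6 libraries (grey line at 1). Tuba8 spans the widest range, and all 6 genes are lowest in wild-type library 3.

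Genes that fold tubulin did not pass the test. Of 22 chaperonin subunits, cofactors and prefoldins, 21 were tested, 13 with positive and 8 with negative log2 fold changes, a median of 0.15, and 0 passed. Every knockout library lay above every wild-type library for 5 of the 21 (Cct8, Cct4, Tcp1, Cct5 and Cct7) and below for 0, against 7.52% and 6.85% of all tested genes. Of the 8 subunits of CCT, 7 had positive values and Cct2 stood at -0.11 (SE 0.25). Cct8 and Cct4 stood at 0.67 (SE 0.26) and 0.49 (SE 0.24), and the cofactor-like gene Tbcel at -0.83 (SE 0.46). The summed level of the list was 3777, 4170 and 4442 CPM in knockout and 4025, 3665 and 3694 CPM in wild type, with overlap.

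Partners of gamma-tubulin were mostly on the positive side, as Tubg1 was. Of 11 genes of the ring complex and its anchors 9 were tested, 8 with positive and 1 with negative values, with a median of 0.36, and 0 passed. The small ring subunit gene Mzt1 stood at 0.62 (SE 0.31), with no overlap between genotypes, Tubgcp6 at 0.93 (SE 0.63) and Tubgcp3 at 0.36 (SE 0.32). None of the 9 had an unadjusted p under 0.05.

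Enzymes that modify tubulin went both ways. Of 18 listed, 10 were tested, 5 with positive and 5 with negative values, with a median of -0.01, and 0 passed. Vash1, which encodes an enzyme that removes the final tyrosine of alpha-tubulin, stood at 1.85 (SE 0.79). Ttll1, a polyglutamylase subunit, stood at -1.97 (SE 0.88) and the acetyltransferase gene Atat1, with 3 listed transcripts, at -1.47 (SE 1.03).

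Tubulin mRNA is also regulated by its own product: in human cells TTC5 binds the opening amino acids of nascent alpha-tubulin and beta-tubulin when free dimers are in excess and recruits a deadenylase. The opening 30 coding bases, from GENCODE vM21, are given to show that Tuba8 shares this start, with the opening 4 codons in capitals.
Tuba8: ATGAGGGAATGCatatcggtccatgtgggt
Tuba1b: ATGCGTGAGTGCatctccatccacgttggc
Tubb5: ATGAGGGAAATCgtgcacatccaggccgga
Tubg1: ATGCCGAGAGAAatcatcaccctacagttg
Tuba8 and Tuba1b encode the same 4 residues by different codons, and Tubg1 begins otherwise. Ttc5, with 2 listed transcripts, stood at -0.59 (SE 0.40), and Cnot11 at -0.31 (SE 0.36). Cnot1 was at 0 counts, so 2 of 3 genes were tested, both negative, and 0 passed.

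Microtubule-binding and severing genes were partly readable, with 12 of 22 tested, 9 with positive and 3 with negative values, a median of 0.41 and 0 passing. The mitotic kinesins Kif18a and Kif2c stood at 1.32 (SE 0.51) and 2.86 (SE 1.14). Both had an unadjusted edgeR p under 0.05, where 2.63% of all tested genes were higher at this cut. Stmn1, which binds free tubulin, stood at 0.35 (SE 0.19). Actin, another main filament of the cytoskeleton, was listed for contrast with genes that act on it. The list also holds Vim, an intermediate filament gene, which stood at -0.07 (SE 0.27). Of the 11 genes in this list 10 were tested, 7 with positive and 3 with negative values (Vim among them), a median of 0.11 and 0 passing. The actin-severing gene Cfl1 stood at 0.55 (SE 0.19), Actg1 at 0.28 (SE 0.20) and Tmsb4x at 0.20 (SE 0.18). The summed level was 8707, 8427 and 9248 CPM in knockout and 9091, 8723 and 7440 CPM in wild type, with overlap.

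Markers of other cells and states also differed in level between the libraries, and their part in the tubulin values was not tested. Of 13 genes of dividing cells all were tested, 11 with positive values, and their summed level was 4042, 5210 and 3795 CPM in knockout and 2484, 2781 and 3423 CPM in wild type, without overlap. Mcm3, Bub1b and Mcm5 stood at 0.95 (SE 0.26), 1.18 (SE 0.32) and 0.84 (SE 0.24), and 0 passed over all genes. Of 14 megakaryocyte and platelet genes 10 were tested, 8 with positive values, and the summed level was 1053, 1333 and 1424 CPM in knockout and 867, 692 and 613 CPM in wild type. It was lowest in wild-type library 3, as were Tuba8 and the summed levels of the actin, T and cytotoxic and erythroid lists. Gp1bb and Clec1b were at 0. Pf4, Gp1ba and Gp9 stood at 1.72 (SE 0.29), 2.40 (SE 0.67) and 1.36 (SE 0.48). The 2 genes with negative values were Ppbp at -1.95 (SE 1.79) and Itgb3 at -0.004 (SE 0.43), and Vwf stood at 0.08 (SE 0.44). None of the 10 passed in edgeR, while DESeq2 called Pf4 (adjusted p = 7.19e-05) and Gp1ba (adjusted p = 0.0299). Over all tested genes DESeq2 called 1.18%. Other lists also held DESeq2 calls. Lower in knockout were Prtn3 of the granulocyte list (DESeq2 adjusted p = 9.14e-13) and Pou2af1, Vpreb1 and Jchain of the B lineage list. Higher were Nkg7 (DESeq2 adjusted p = 0.0019) and Ccl5 (DESeq2 adjusted p = 0.0032) of the T and cytotoxic list.

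Stem cell genes other than Hlf had a summed level of 318, 274 and 273 CPM in knockout and 418, 461 and 523 CPM in wild type, without overlap. Of these 8 genes 7 were tested, 3 with positive and 4 with negative values and a median of -0.83, and 0 passed. Procr stood at -1.69 (SE 0.54), Fgd5 at -1.02 (SE 0.41) and Mecom, with 2 listed transcripts, at -0.83 (SE 0.31). Each had an unadjusted edgeR p under 0.05, where 4.65% of all tested genes were lower at this cut. The genes with positive values were Ctnnal1 at 0.56 (SE 0.54), Hoxb5 at 0.21 (SE 0.80) and Slamf1 at 0.16 (SE 0.56). Of 9 granulocyte genes 5 were tested, all negative, with S100a9 at 0. Of 7 B lineage genes 6 were tested, all negative. The B lineage sum was 299, 210 and 139 CPM in knockout and 2056, 749 and 5591 CPM in wild type, without overlap. T and cytotoxic genes summed to 337, 383 and 620 CPM in knockout and 177, 235 and 116 CPM in wild type, without overlap. Of the 5 tested 3 were positive: Nkg7 at 1.64 (SE 0.34), Ccl5 at 2.39 (SE 0.54) and Cd3g at 4.09 (SE 1.88). Cd3e stood at -1.14 (SE 0.87) and Gzmb at -2.41 (SE 1.95). Erythroid genes summed to 192, 240 and 226 CPM in knockout and 203, 187 and 173 CPM in wild type, with 4 of 5 tested genes positive and Hba-a1 and Hbb-bs at 0.

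**Figure D5:**
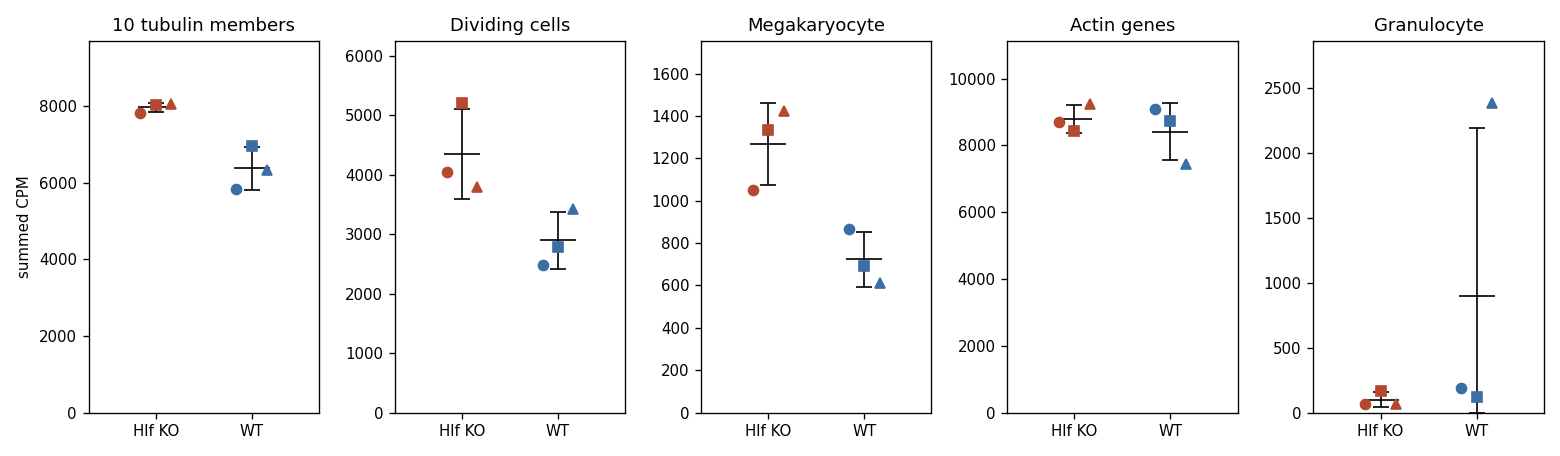
Summed CPM (linear axes from 0) of the 10 tubulin members and of 4 marker lists in knockout (red) and wild-type libraries (blue), with the mean and SD of 3 libraries and lower bars ended at 0. Tubulins, dividing-cell genes and megakaryocyte genes are higher in every knockout library, the actin list (with Vim) overlaps, and granulocyte genes are high in wild-type library 3.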

How the data were processed

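The authors deposited raw read counts per RefSeq transcript for each library, without normalisation. Per the submitters' processing notes, reads were processed with TopHat and build mm9; its version, the counter and the use of strand are not stated. Of 30858 transcripts, 30363 received a gene symbol from a RefSeq gene table (GRCm38.p6), 179 from GENCODE vM21, and 316 kept their accession. Counts were summed to 23574 genes. Knockout was compared with wild type by edgeR 4.0.16 (R 4.3.3; TMM, filterByExpr with a minimum count of 10 and a minimum total of 15, robust quasi-likelihood F test, Benjamini-Hochberg adjustment over 10204 genes, threshold 0.05), and the fit was tested on simulated data. SE values come from the F statistic, and log2 CPM has a prior count of 2 added. DESeq2 1.42.0 and limma-voom 3.58.1 were alternatives. Transcript lengths and shared stretches come from GENCODE vM21, not from the authors' annotation.

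The members and gene lists were chosen with earlier results of these data known. Named genes are the members, the other tubulins, Hlf, the 3 genes of smallest p in each list, the 5 genes most like Tuba8 and its 2 neighbours on each side. Each library had 8346335 to 11998296 counts.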

Additional observations from a re-analysis of the deposited data

How the results depend on the processing

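Among all genes tested 1 (Hlf) was called, and this count was 9 with no filter beyond 1 count, 120 with DESeq2, 2 with the replicate block and 1 to 3 with 1 library left out. The cause was not tested. With the replicate number as a block, the second gene was Prg2, and 0 members passed. Libraries of the same number did not deviate together (r of deviations from -0.022 to 0.020). With 3 libraries of each genotype this check cannot exclude a pairing, and the labels do not state one. None of the 9 members other than Tuba8 passed in any of the 14 alternatives. The log2 fold change of Tuba8, given without a test, ranged from 1.32 to 1.78. Tubb4b reversed to -0.10 without knockout library 1 and to -0.06 without wild-type library 3, and ranged from -0.10 to 0.23 with 1 library left out. The other 9 members kept a positive sign throughout. Alternatives chosen after the data were seen counted signs and separation: members with a positive value numbered 9 or 10, and members whose genotypes did not overlap 7 or 8 with 1 library left out, 6 with library size alone and 5 with DESeq2's size factors. Leaving out a library raises the share of all genes with every knockout library above every wild-type library to between 10.98% and 16.5%. The median log2 fold change of all genes lay between -0.07 and 0.06 over the 14 alternatives, where it was -0.05 as reported. It moved by under 0.1 with each scaling, and by just over 0.1, to 0.06, with limma-voom and with the replicate block, where the median of the members stayed at 0.38. The difference in Tuba8 share of alpha counts was 0.965 percentage points, 0.786 per kilobase of transcript and 0.816 to 1.08 with 1 library left out. The low counts of Tubb2a and Tubb6 limit what these libraries can show for both genes.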
